A study of Mus musculus with 12 samples.

Results

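In all, 10 genes of the circadian clock were followed in smooth muscle cells of the mouse thoracic aorta: the period genes Per1, Per2 and Per3, the cryptochrome genes Cry1 and Cry2, the REV-ERB genes Nr1d1 and Nr1d2, the PAR bZIP genes Dbp and Tef, and Ciart. They were chosen by name, as rows of the deposited count table whose Ensembl identifier carried those symbols, and all 10 were found among 52636 genes. All 10 passed the filter on low counts, which left 22320 genes for testing. The libraries came from 6 male mice on a C57BL/6J background. All 6 carried the tamoxifen-inducible Cre recombinase Myh11-CreERT2, driven by the smooth muscle myosin promoter, and the mT/mG reporter, which switches a cell from a red to a green fluorescent protein after Cre has acted. The 3 mice designated GFPiSMC carried no floxed receptor gene. The 3 mice designated Tgfbr1/2iSMCKO carried in addition floxed alleles of Tgfbr1 and Tgfbr2, the type I and type II receptors for TGF-β. Every mouse received tamoxifen for 5 days and was examined at 12 weeks of age. The cells were profiled after short-term deletion in mature aortas, for which tamoxifen was given at 2 mg per day from 11 weeks of age; the labels also name a course of 1 mg per day from 4 weeks of age, which was used for a subgroup of the study's mice. GFP+ cells were sorted from the ascending aorta with the arch and from the descending thoracic aorta of each animal, which gave 12 libraries in 4 groups of 3 from 9208 to 20000 cells each. The hour of the day at which the animals were killed is not given in the sources used here, so it could not be set beside any value. The floxed line and the receptor deletion go together, so line and deletion cannot be told apart.

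The molecular clock is a feedback loop of transcription. The heterodimer of CLOCK and BMAL1 (the product of Arntl) binds E-box sites and activates the period and cryptochrome genes, whose proteins return to the nucleus and repress the dimer. A side loop runs through the REV-ERB repressors Nr1d1 and Nr1d2 and the ROR activators, which compete for the same sites, those that drive Arntl among them. Output is carried further by the PAR bZIP activators DBP, TEF and HLF and by the repressor NFIL3, all of which bind D-box sites. The aorta and its smooth muscle cells hold such a clock, and transcripts of these genes are known to rise and fall over the day with different peak hours.

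Promoters were searched for the exact letters of sites of the kinds named above. Shown are the 4 genes whose genotype difference had an unadjusted p under 0.05 over libraries (edgeR). Per3 is added as the only 1 of the 9 members searched whose window matched the D-box letters. Each is a stretch from the 250 bases before a RefSeq transcription start (GRCm38.p6), written 5′ to 3′ on the gene's own strand. Capitals mark an E-box (CACGTG), an E-prime box (CACGTT, or AACGTG where it lies on the other strand) or a D-box (TTATGTAA). They also mark AGGTCA, which is only part of a nuclear receptor site.
Dbp (chr7:45704997-45705086, plus strand): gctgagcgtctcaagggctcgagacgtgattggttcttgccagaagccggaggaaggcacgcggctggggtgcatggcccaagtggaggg
Nr1d2 (chr14:18239147-18239236, minus strand): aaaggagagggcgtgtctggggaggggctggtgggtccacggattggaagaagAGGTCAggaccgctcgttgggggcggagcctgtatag
Nr1d1 (chr11:98775388-98775477, minus strand): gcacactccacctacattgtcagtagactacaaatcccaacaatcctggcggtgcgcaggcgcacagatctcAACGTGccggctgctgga
Cry1 (chr10:85185085-85185174, minus strand): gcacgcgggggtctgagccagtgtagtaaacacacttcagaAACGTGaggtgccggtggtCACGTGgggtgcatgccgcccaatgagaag
Per3 (chr4:151044796-151044885, minus strand): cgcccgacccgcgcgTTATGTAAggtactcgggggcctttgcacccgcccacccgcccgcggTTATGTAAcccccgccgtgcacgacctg

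A window was at hand for 9 of the 10 genes, all but Per2. For Per1 and Tef, windows at separate starts were searched, and a gene counted where any of its windows matched. The shares over all promoters are per window, so the units differ. On either strand the E-box was found in 4 of the 9 (Per1, Cry1, Tef and Ciart, with 3 copies in Ciart) and in 6.02% of 32851 promoter windows of the same length. The E-prime box was found in 3 (Cry1, Cry2 and Nr1d1) and in 3.85% of windows, and the D-box only in Per3, in 2 copies, and in 0.819% of windows. AGGTCA was found in 2 (Per1 and Nr1d2) and in 14% of windows. Whether any of these matches is bound was not tested. The Dbp window held none of these letters, which says nothing of sites elsewhere in the gene. Of its 250 bases, 159 lie within annotated exons of Dbp (GENCODE), so less of it lies before the gene. In Cry1 the E-box began 60 bases and the E-prime box 79 bases before the start, and in Nr1d1 the E-prime box began 28 bases before it.

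Library totals were 25007747 to 31392396 counts in GFPiSMC and 20467027 to 30354994 in Tgfbr1/2iSMCKO, and no pair of libraries was identical. Smooth muscle markers (Myh11, Acta2, Tagln, Cnn1, Smtn and Lmod1) summed to 39636 to 47523 CPM (counts relative to the library total after TMM scaling) in GFPiSMC and 33588 to 42571 CPM in Tgfbr1/2iSMCKO, and 0 of 6 were called between genotypes (2 of 6 had an unadjusted p under 0.05). Sums over 6 markers each were 42.9 to 87.2 against 14.8 to 108 CPM for fibroblasts, 66.5 to 99.96 against 54.2 to 105 CPM for endothelium and 5.96 to 13.3 against 7.12 to 20.6 CPM for macrophages. The 5 adipocyte markers summed to 92.0 to 162 against 142 to 178 CPM, and the 4 Schwann cell markers to 2.42 to 6.48 against 3.27 to 4.67 CPM. Over both segments together these sums overlapped. In descending libraries alone, smooth muscle sums (41859 to 47523 against 34761 to 39645 CPM) and fibroblast sums (42.9 to 49.3 against 14.8 to 33.8 CPM) did not. Adipocyte sums did not in either segment (92.0 to 130 against 142 to 178 CPM ascending, 105 to 162 against 167 to 176 CPM descending). Single markers were called. Of the 6 fibroblast markers Serpinf1 fell in both genotype fits, from 14.1 to 37.9 CPM in GFPiSMC to 3.34 to 13.5 CPM in Tgfbr1/2iSMCKO, with no overlap. Yet 4 of the 6 had a log2 fold change above 0 over libraries (list median 0.31), among them Dpt at 0.98 ± 0.68 (adjusted p = 0.579, edgeR). Of the 6 endothelial markers Cdh5 was called higher in both, at 0 to 0.513 against 0.497 to 2.71 CPM. Over libraries 5 of the 6 had a log2 fold change above 0 (list median 0.95). Pecam1 alone was below 0 (-0.13), at 61.6 to 95.7 against 44.4 to 87.5 CPM, and it made up most of the endothelial sums. Of the 5 adipocyte markers Cidea rose in both fits and in both segments, from 25.9 to 37.9 CPM to 73.0 to 111.3 CPM, while Adipoq, Plin1 and Ucp1 were at most 0.948 CPM in every library. Fabp4 went the other way and was not called, at 65.8 to 134.8 against 61.8 to 86.1 CPM (log2 fold change -0.45 ± 0.16, adjusted p = 0.168, edgeR). No tested macrophage or Schwann cell marker was called in edgeR (0 of 5 and 0 of 2 over libraries, of which 0 and 1 had an unadjusted p under 0.05). The part of other cells in the clock values was not tested. Counts over whole genes do not check a floxed deletion: Tgfbr1 differed by 0.10 ± 0.12 (log2 fold change ± SE, adjusted p = 0.79, edgeR) and Tgfbr2 by -0.26 ± 0.11 (adjusted p = 0.23). On the first principal component of 9195 well expressed genes, which held 34.0% of the variance, both libraries of Tgfbr1/2iSMCKO animal 3 and the descending library of GFPiSMC animal 2 lay at 1 end, so values without them are given where they change a count.

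Per kilobase of exon, the mean level over the 12 libraries ran from Nr1d1 at 31.4 CPM per kilobase through Nr1d2 at 8.11, Dbp at 7.21, Cry1 at 5.48, Cry2 at 2.80, Per2 at 2.79, Tef at 2.42 and Per3 at 0.975 to Per1 at 0.595 and Ciart at 0.575. The library ranges of each pair of neighbours in this order overlapped. Nr1d1 thus stood highest and Per1 and Ciart lowest, with raw counts per library of 1225 to 4714 for Nr1d1, 24 to 146 for Per1 and 13 to 65 for Ciart. Values of Per1 and Ciart rest on few counts.

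Dbp was higher in Tgfbr1/2iSMCKO than in GFPiSMC cells, 3.404-fold over the 12 libraries, and was the only clock output gene to pass the test. Nr1d2 and Nr1d1 had higher means and Cry1 a lower mean in Tgfbr1/2iSMCKO, and none of the 3 passed. The call therefore covered 1 of 10 members, against 5.03% of all genes tested (1123 of 22320; 1.8% were higher and 3.23% lower), and the median log2 fold change of the members was 0.17 against 0.04 over all genes tested. A gene is called where the adjusted p from edgeR's quasi-likelihood test, over all genes tested, is under 0.05. That fit takes the 12 libraries with the segment as a term and treats the segments of an animal as separate, so a fit on counts summed per animal, 3 against 3, is given beside it. There again 1 of 10 members was called, Dbp, against 1.86% of 24275 genes. In a bulk library, more cells with a transcript and more transcript per cell cannot be told apart.

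**Figure D1:**
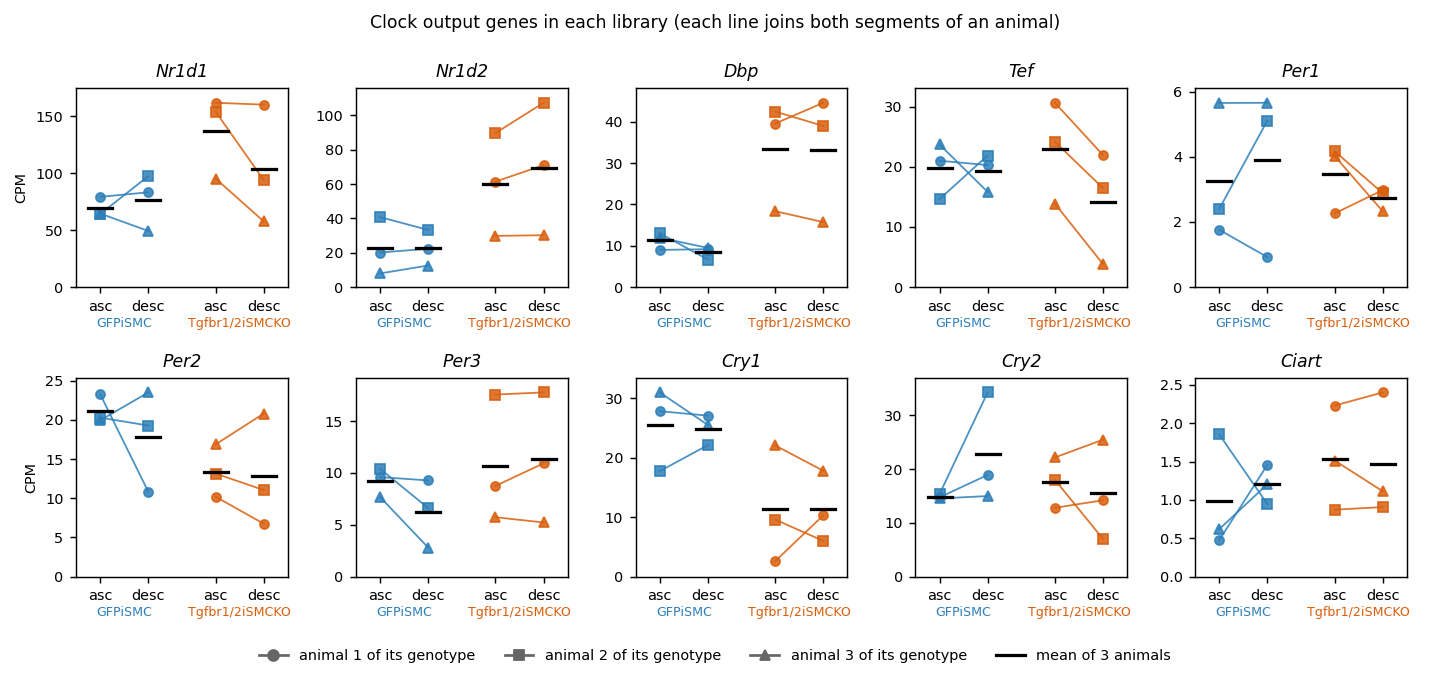
Expression of the 10 clock output genes in CPM (linear axes from 0, a scale per gene) in every library, with ascending (asc) and descending (desc) segments of GFPiSMC in blue and of Tgfbr1/2iSMCKO in orange. Lines join the segments of an animal and bars are means of 3 animals; Dbp alone has all 6 Tgfbr1/2iSMCKO libraries (15.7 to 44.6 CPM) above all 6 GFPiSMC libraries (6.66 to 13.01 CPM).

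Dbp encodes a D-box activator whose transcript has among the widest daily swings of the clock genes in many tissues. It lies on chromosome 7 (45705088 to 45710203, plus strand, GRCm38). In GFPiSMC, animals 1, 2 and 3 gave 8.98, 13.01 and 11.9 CPM in the ascending segment and 9.17, 6.66 and 9.48 CPM in the descending segment. In Tgfbr1/2iSMCKO they gave 39.6, 42.5 and 18.4 CPM in the ascending and 44.6, 39.0 and 15.7 CPM in the descending segment. The groups did not overlap in either segment, and animal 3 of Tgfbr1/2iSMCKO lay nearest to GFPiSMC in both. Such a separation over the 12 libraries was seen in 4.39% of all genes tested, 1.51% with Tgfbr1/2iSMCKO higher, and in 1 of the 10 members. The log2 fold change was 1.77 ± 0.28 (SE, adjusted p = 0.00185, edgeR) over 12 libraries and 1.75 ± 0.33 (adjusted p = 0.0378) over animals. By segment it was 1.97 ± 0.41 in the descending segment (adjusted p = 0.0303, edgeR), where Dbp was again the only member called (1.72% of genes). In the ascending segment it was 1.56 ± 0.40 (adjusted p = 0.0913, edgeR), and 0 of 10 members were called there (1.41% of genes). In that segment 3 members had an unadjusted p under 0.05 in edgeR, and DESeq2 called 1 member, Dbp, with 909 of 22320 genes. The descending call was lost with that segment fitted alone (adjusted p = 0.0941, edgeR) and without any of the 3 GFPiSMC animals or animal 1 or 2 of Tgfbr1/2iSMCKO (adjusted p up to 0.202). The call over animals depended on the same 5 of the 6 animals: without any of them, Dbp was no longer called, with adjusted p up to 0.174 over all alternatives of that fit.

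Dbp shares 539 of its 2993 exonic bases (18.0%) with exons of Sphk2, a sphingosine kinase gene on the opposite strand, and whether reads were counted by strand is not given in the sources used here. Sphk2, looked up after the Dbp values had been seen, was also higher in Tgfbr1/2iSMCKO, with 11.5 to 13.01 CPM in GFPiSMC and 24.4 to 34.0 CPM in Tgfbr1/2iSMCKO (log2 fold change 1.216 ± 0.14, adjusted p = 0.000116, edgeR). The mean of Sphk2 went from 12.3 to 28.6 CPM and that of Dbp from 9.87 to 33.3 CPM. Without strand, reads from the shared bases cannot be assigned to either gene, and their part in the Dbp difference was not tested.

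The REV-ERB genes encode heme-binding repressors that act on Arntl and many output genes. Nr1d2 (chromosome 14, 18204054 to 18239127, minus strand) gave 20.1, 40.7 and 7.93 CPM in ascending and 22.3, 33.3 and 12.5 CPM in descending libraries of GFPiSMC animals 1 to 3. In Tgfbr1/2iSMCKO it gave 61.4, 89.7 and 29.8 CPM in ascending and 71.0, 107 and 30.2 CPM in descending libraries. Of the 6 Tgfbr1/2iSMCKO libraries 4 lay above all GFPiSMC libraries, and those of animal 3 lay within their range. Its log2 fold change was 1.503 ± 0.42 (adjusted p = 0.0582, edgeR) over libraries and 1.51 ± 0.51 (adjusted p = 0.268) over animals. It passed in 8 of 15 alternatives of the former fit and in 1 of 12 of the latter.

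Nr1d1 (chromosome 11, 98767932 to 98775333, minus strand) gave 79.2, 64.2 and 64.5 CPM in ascending and 83.2, 97.4 and 49.2 CPM in descending libraries of GFPiSMC. In Tgfbr1/2iSMCKO the values were 162, 154 and 95.2 CPM in ascending and 160, 93.9 and 57.6 CPM in descending libraries. The groups did not overlap in the ascending segment but did in the descending segment, where animals 2 and 3 fell among the GFPiSMC values. For Nr1d1 the log2 fold change was 0.71 ± 0.25 (adjusted p = 0.147, edgeR) over libraries and 0.72 ± 0.26 (adjusted p = 0.304) over animals. Nr1d1 shares 263 of 3077 exonic bases (8.55%) with Thra, a thyroid hormone receptor gene on the other strand, for which the log2 fold change was -0.31 ± 0.17 (adjusted p = 0.45).

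The cryptochromes are the main repressors of the CLOCK and BMAL1 dimer. Cry1 (chromosome 10, 85131700 to 85185064, minus strand) gave 27.8, 17.7 and 30.98 CPM in ascending and 27.1, 22.1 and 25.5 CPM in descending libraries of GFPiSMC. Its values in Tgfbr1/2iSMCKO were 2.61, 9.61 and 22.1 CPM in ascending and 10.3, 6.02 and 17.8 CPM in descending libraries. The 4 libraries of animals 1 and 2 lay below all GFPiSMC libraries, and those of animal 3 did not. This gave a log2 fold change of -1.14 ± 0.40 (adjusted p = 0.143, edgeR) over libraries and -1.13 ± 0.45 (adjusted p = 0.358) over animals. Without the 3 libraries at the end of the first component, or without Tgfbr1/2iSMCKO animal 3 alone, 4 members were called over libraries: Dbp, Nr1d1 and Nr1d2 as higher and Cry1 as lower. The genes called in these fits were 905 of 22937 and 993 of 23532. Over animals, leaving out Tgfbr1/2iSMCKO animal 3 called only Dbp and Cry1 among the members, with 664 of 25739 genes called.

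Cry2 (chromosome 2, 92403646 to 92434043, minus strand) ranged from 14.5 to 34.2 CPM in GFPiSMC and from 7.01 to 25.5 CPM in Tgfbr1/2iSMCKO, with medians of 15.2 and 16.1 CPM. The highest value was that of the descending library of GFPiSMC animal 2, 1 of the 3 libraries at the end of the first component. The log2 fold change was -0.15 ± 0.31 (adjusted p = 0.905, edgeR), and its sign turned when animal 2 of either genotype was left out. Cry2 shares 295 exonic bases with a transcript named D930015M05Rik and Tef shares 193 with Gm17597, both on the opposite strand.

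The period genes encode the partners of the cryptochromes in the repressor complex. Per2 (chromosome 1, 91415982 to 91459324, minus strand) gave 23.2, 20.3 and 19.9 CPM in ascending and 10.8, 19.3 and 23.5 CPM in descending libraries of GFPiSMC. In Tgfbr1/2iSMCKO it gave 10.2, 13.2 and 16.9 CPM in ascending and 6.75, 11.0 and 20.8 CPM in descending libraries. The ascending groups did not overlap, with Tgfbr1/2iSMCKO lower, and the descending groups did. The log2 fold change over libraries was -0.56 ± 0.27 (adjusted p = 0.329, edgeR).

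Per3 (chromosome 4, 151003652 to 151044665, minus strand) ranged from 2.81 to 10.4 CPM in GFPiSMC and from 5.23 to 17.8 CPM in Tgfbr1/2iSMCKO, where both libraries of animal 2 held the highest values, 17.6 and 17.8 CPM. Its log2 fold change was 0.53 ± 0.37 (adjusted p = 0.582, edgeR). Per1 (chromosome 11, 69095217 to 69109960, plus strand), which besides its rhythm is induced by glucocorticoids and other acute signals, ranged from 0.921 to 5.66 CPM in GFPiSMC and from 2.27 to 4.17 CPM in Tgfbr1/2iSMCKO. All 6 Tgfbr1/2iSMCKO values of Per1 lay within the GFPiSMC range. Its log2 fold change was -0.21 ± 0.42 (adjusted p = 0.898).

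Tef (chromosome 15, 81802421 to 81826863, plus strand), the other PAR bZIP gene among the 10, did not show the Dbp pattern. It ranged from 14.6 to 23.7 CPM in GFPiSMC and from 3.81 to 30.6 CPM in Tgfbr1/2iSMCKO, with medians of 20.6 and 19.2 CPM. Animal 3 of Tgfbr1/2iSMCKO gave the 2 lowest values of all libraries, 13.9 and 3.81 CPM. The log2 fold change was -0.12 ± 0.35 (adjusted p = 0.929, edgeR). Ciart (chromosome 3, 95878503 to 95882251, minus strand), a repressor of the dimer, ranged from 0.477 to 1.85 CPM in GFPiSMC and from 0.873 to 2.402 CPM in Tgfbr1/2iSMCKO, and its log2 fold change was 0.47 ± 0.40 (adjusted p = 0.686).

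**Figure D2:**
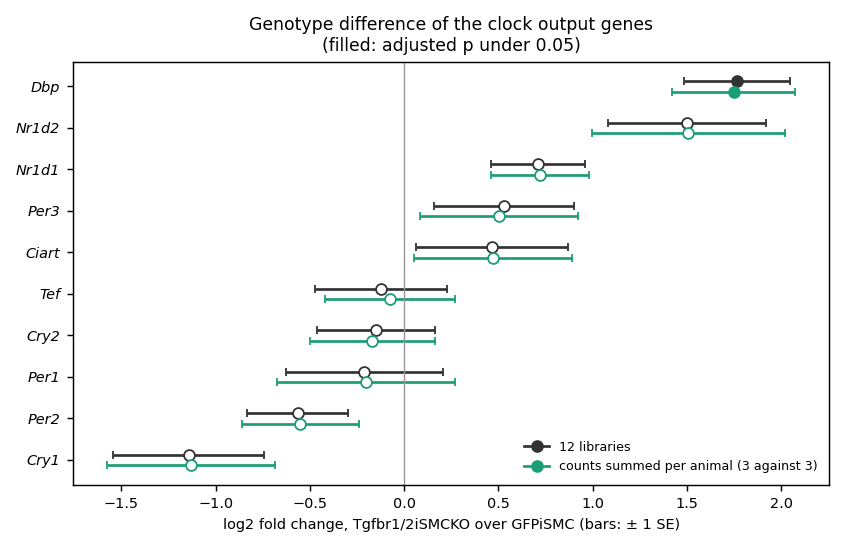
Log2 fold change of Tgfbr1/2iSMCKO over GFPiSMC for the 10 genes, with bars of 1 SE, from the fit over 12 libraries (black) and over counts summed per animal (green). Filled points passed an adjusted p of 0.05; Dbp is filled in both fits (1.77 and 1.75) and the other 9 genes in neither.

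The spread between animals lay at or above that of the typical gene in all 10 genes, only just so in Per2, Nr1d1 and Cry2. The SD between animals within a genotype, on the log2 scale, was 0.91 for Nr1d2 (higher than in 83.2% of genes tested), 0.78 for Per1, 0.73 for Cry1, 0.71 for Per3 and 0.69 for Tef. It was 0.55 for Ciart, 0.53 for Dbp, 0.46 for Cry2, 0.45 for Nr1d1 and 0.45 for Per2, against a median of 0.44 over all genes tested. Between the segments of an animal the difference was below the median of all genes tested for 7 of the 10, with a median size on the log2 scale of 0.20 for Dbp, 0.23 for Per3 and 0.23 for Nr1d2, against 0.50 over all genes tested. Per1, Tef and Ciart had larger differences, at 0.66, 0.57 and 0.69, and Per1 and Ciart had the lowest counts of the members. Both medians are over all 22320 genes tested, of which 9195 had a mean log2 CPM above 3. The members were not matched to genes of like level, so the part of expression level in these contrasts was not tested. Nr1d2 varied widely among the controls themselves, whose animal means ran from 10.2 to 37.0 CPM, 3.69-fold apart when averaged on the log2 scale.

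Within Tgfbr1/2iSMCKO, animal 3 lay nearest of the 3 to the GFPiSMC mean in Dbp, Nr1d2, Nr1d1, Cry1 and Per2. It was also the nearest in Per1 and Cry2, whereas animal 1 was the nearest in Per3 and animal 2 in Ciart and Tef. Relative to the GFPiSMC mean on the log2 scale, animals 1, 2 and 3 stood at 2.09, 2.05 and 0.79 for Dbp and at 1.73, 2.30 and 0.58 for Nr1d2. The corresponding differences were 1.16, 0.78 and 0.09 for Nr1d1, -1.95, -1.67 and -0.32 for Cry1 and -1.20, -0.68 and -0.04 for Per2. Per2 was graded over the 3 animals. For Tef animal 3 was the farthest, at -1.14. Among the controls, animal 3 was also the lowest in Nr1d2 (-0.97) and Nr1d1 (-0.34) and the highest in Cry1 (0.18) and Per2 (0.16). In Dbp the control animal 3 was the highest (0.12), unlike animal 3 of Tgfbr1/2iSMCKO. Animal 3 of Tgfbr1/2iSMCKO is also the animal at the end of the first component. Whether it was taken at another hour is not given in the sources used here.

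**Figure D3:**
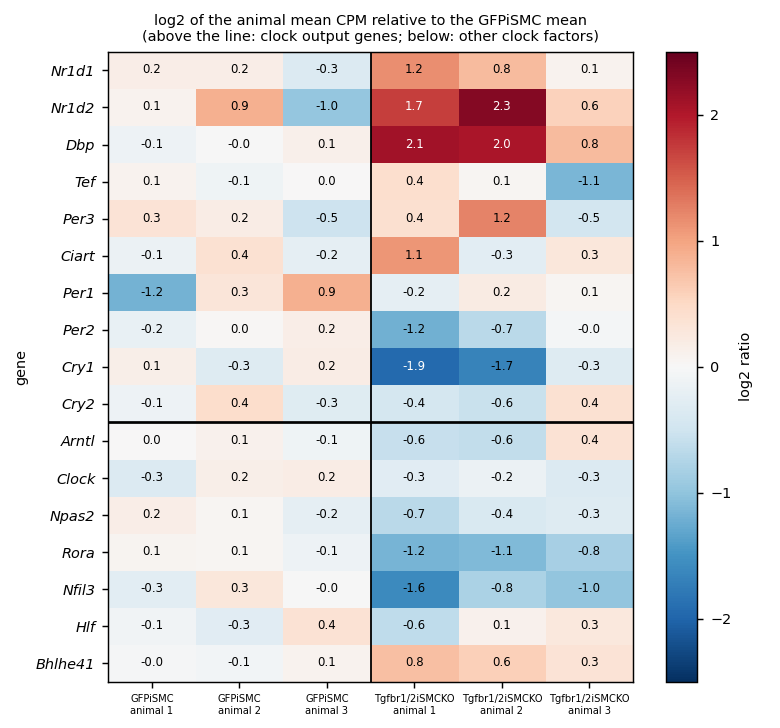
Log2 ratio of each animal's mean CPM (mean of its segments) to the mean log2 level of the 3 GFPiSMC animals, for the 10 clock output genes above the line and 7 other clock factors below it. Red is higher and blue lower; Dbp and Nr1d2 are red and Cry1 blue in Tgfbr1/2iSMCKO animals 1 and 2, with smaller ratios in animal 3, whereas Rora and Nfil3 are blue in all 3.

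Of 11 other transcription factors of the loop, 10 were tested, and 2 fell and 1 rose over libraries (median log2 fold change -0.24), while only Rora passed over animals. Rora, an activator that opposes the REV-ERB repressors, was 169 to 228 CPM in GFPiSMC and 83.7 to 121 CPM in Tgfbr1/2iSMCKO, with no overlap (log2 fold change -1.02 ± 0.12, adjusted p = 0.000169, edgeR). It fell in both segments, by 1.21 ± 0.16 on the log2 scale in the ascending segment (adjusted p = 0.00197, edgeR) and by 0.84 ± 0.16 in the descending segment (adjusted p = 0.0194). Nfil3, the D-box repressor, was 62.8 to 109 CPM in GFPiSMC and 21.1 to 55.5 CPM in Tgfbr1/2iSMCKO, again with no overlap (log2 fold change -1.10 ± 0.21, adjusted p = 0.00731 over libraries and 0.0779 over animals). Bhlhe41, a repressor at E-boxes, was 26.1 to 41.2 against 37.98 to 55.6 CPM (log2 fold change 0.57 ± 0.15, adjusted p = 0.0405 over libraries and 0.179 over animals). The core activators did not pass: the log2 fold change was -0.20 ± 0.21 for Arntl, -0.28 ± 0.16 for Clock and -0.47 ± 0.15 (adjusted p = 0.102, edgeR) for its relative Npas2. Arntl was 63.3 to 97.7 CPM in GFPiSMC and 43.3 to 57.6 CPM in Tgfbr1/2iSMCKO animals 1 and 2, with 87.6 and 105 CPM in animal 3.

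Other genes around the clock were described from fixed lists. Among 9 modifiers of clock proteins 1 fell, Sfpq, an RNA-binding partner of the period proteins, with 63.9 to 79.8 CPM in GFPiSMC and 36.6 to 51.1 CPM in Tgfbr1/2iSMCKO (log2 fold change -0.68 ± 0.12, adjusted p = 0.00378 over libraries and 0.0745 over animals, edgeR). Among 9 further rhythmic output genes 1 rose, Nampt, an enzyme of NAD synthesis, from 58.4 to 77.5 CPM in GFPiSMC to 87.9 to 113 CPM in Tgfbr1/2iSMCKO (log2 fold change 0.53 ± 0.11, adjusted p = 0.0103 over libraries and 0.111 over animals). The medians of these lists were 0.20 and -0.03 on the log2 scale.

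Cues that act on clock genes were looked at through their own target lists. Of 8 glucocorticoid response genes 1 fell over libraries (Errfi1, log2 fold change -1.05 ± 0.20, adjusted p = 0.00768, edgeR) and 1 rose (Mt2, a metallothionein, 0.88 ± 0.18, adjusted p = 0.0118), with a median of -0.08. Over animals neither passed, with adjusted p = 0.0974 for Errfi1 and 0.105 for Mt2 in edgeR, nor did the other 6 genes of the list. Fkbp5, a widely used reporter of the hormone, differed by 0.18 ± 0.33 (adjusted p = 0.887). Of 8 temperature response genes 4 heat shock genes fell over libraries (Hspa8, Hsph1, Dnajb1 and Hsp90aa1) and 1 rose, Cirbp, a cold-inducible RNA-binding protein gene, with a median of -1.20. Hspa8 was 1595 to 2333 CPM in GFPiSMC and 623 to 1216 CPM in Tgfbr1/2iSMCKO, and Cirbp was 9.68 to 45.3 against 46.7 to 130.6 CPM (log2 fold change 1.71 ± 0.33, adjusted p = 0.00718). Over animals Hspa8 and Cirbp alone of this list were called. Of 12 immediate early genes, which respond within minutes to handling and dissociation of tissue, 0 were called over libraries (5 had an unadjusted p under 0.05, all lower in Tgfbr1/2iSMCKO), and Egr2 fell over animals (log2 fold change -1.84 ± 0.35, adjusted p = 0.04). The part of these cues in the clock values was not tested.

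**Figure D4:**
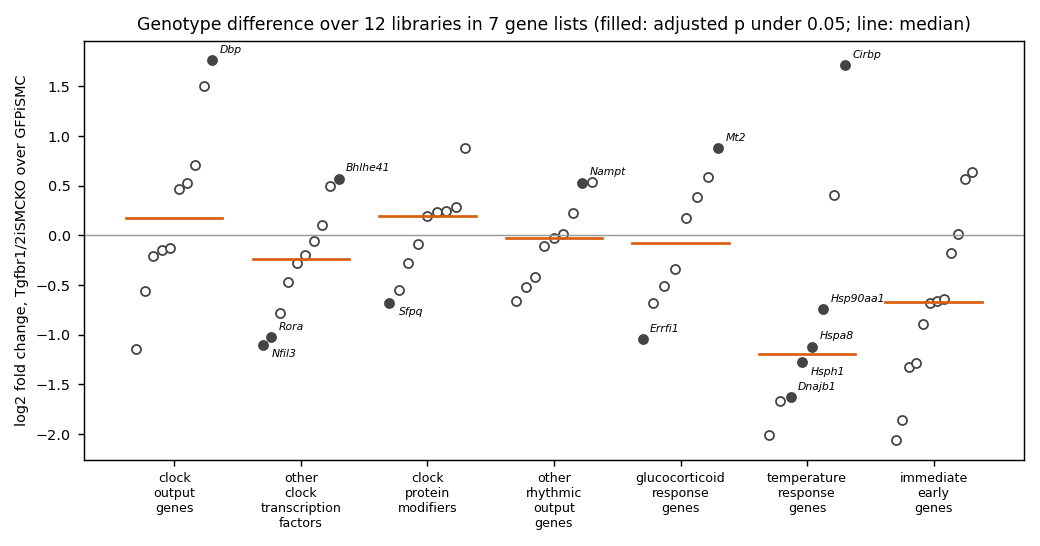
Log2 fold change of Tgfbr1/2iSMCKO over GFPiSMC in the fit over 12 libraries for every tested gene of 7 lists, sorted within each list, with the list median as an orange line. Filled and named points passed an adjusted p of 0.05: 1 of 10 clock output genes, 3 of 10 other clock transcription factors and 5 of 8 temperature response genes.

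Between the segments, 0 of 10 clock output genes were called when descending and ascending libraries were compared within animals (0.677% of all genes tested, or 151, were called; 0 of 10 members had an unadjusted p under 0.05, and DESeq2 called 0). The log2 differences, descending over ascending, ran from -0.48 ± 0.28 for Tef to 0.19 ± 0.38 for Ciart, with -0.24 ± 0.17 for Dbp and 0.16 ± 0.14 for Nr1d2. Tef was lower in the descending segment in 5 of 6 animals, and Nr1d2 and Cry2 were higher there in 5 of 6. Nor was the genotype difference of any member called as different between segments (0 of 10, against 0% of all genes tested in edgeR, where 818 genes had an unadjusted p under 0.05 and DESeq2 called 43; 0 members had an unadjusted p under 0.05 in edgeR, and DESeq2 called 0). That difference was 0.36 ± 0.34 for Dbp, descending minus ascending, and -0.93 ± 0.48 for Tef. A p that misses the threshold does not show that the segments were alike in these genes.

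**Figure D5:**
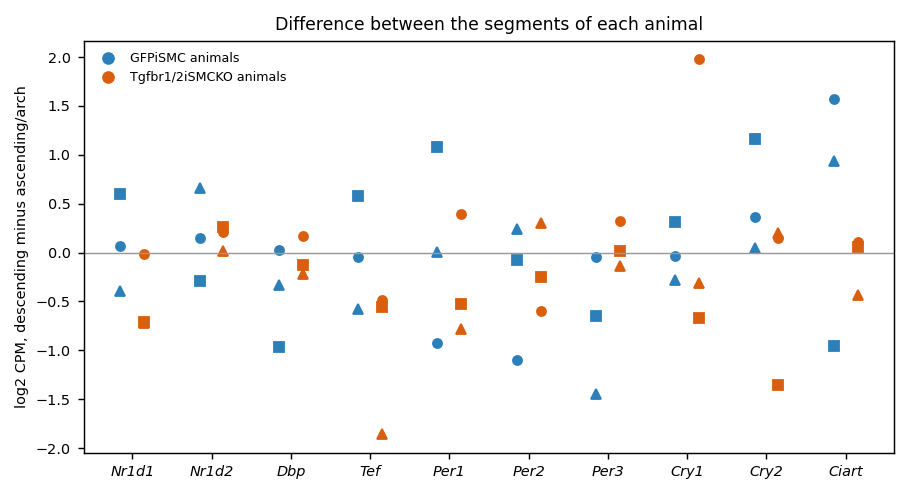
Log2 CPM of the descending minus that of the ascending segment for each animal and clock output gene (circle, square and triangle for animals 1, 2 and 3 of GFPiSMC in blue and Tgfbr1/2iSMCKO in orange). The points scatter on both sides of 0 for every gene; the widest departures are 1.98 for Cry1 and -1.86 for Tef, both in Tgfbr1/2iSMCKO.

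The 10 genes did not vary as 1 profile. Over the 45 pairs of members, the correlation of their deviations from the 4 group means ran from -0.81 to 0.84, with 22 pairs positive and 23 negative. The mean member profile, with each member scaled to unit SD, was compared with 9187 well expressed genes over the 12 libraries, of which 2 share each animal. The most similar were Smad4 (r = 0.94), the common partner of the SMAD signal carriers, Aimp2 (0.93), Prkca (0.92), Peli2 (0.91) and Nexn (0.91), and the most opposite Zdhhc18 (-0.88), Utp14a (-0.86), 1600002K03Rik (-0.83), Zfyve27 (-0.83) and Fahd1 (-0.82). These are extremes of 9187 values over 12 points and are given as a description.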

How the data were processed

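GFP+ aortic cells from 6 mice gave 12 libraries, prepared with a low-input RNA kit and grouped by the labels' genotype and segment. The authors trimmed reads with Trim Galore 0.5.0, aligned them to GRCm38 with HISAT2 2.1.0 and quantified genes with StringTie 1.3.3b on GENCODE M15. They deposited counts per gene, not normalized, in which values of 2 outnumber values of 1 (32279 against 22574 gene and library pairs). Symbols and coordinates came from GENCODE on the same build (52403 of 52636 identifiers matched), and promoters from RefSeq.

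The deposited counts were tested with edgeR 4.0.16 (R 4.3.3, TMM factors, filterByExpr on the 4 groups, quasi-likelihood test, Benjamini-Hochberg adjustment). The genotype was fitted over 12 libraries with the segment as a term, over counts summed per animal, and within each segment from 4 group means. The segment and its interaction with genotype were fitted with the animal as a block. DESeq2 1.42.0, limma 3.58.1, other scaling, other filters and leaving out each animal were alternatives, and scripts were tested on simulated data. The members, lists and tests were chosen with earlier results of these data known. All 10 members were named with their values, members of other lists where called or needed to describe the list, and the 5 genes most and least like the mean member profile. The replicates are separate animals, and the segments of an animal are not independent: correlations of their deviations ran from -0.24 to 0.66. Standard errors over libraries rest on the 12 libraries, those over animals on 3 animals per genotype. Each edgeR SE is the size of the log2 fold change divided by the square root of the quasi-likelihood F statistic. That statistic uses dispersions that draw on all genes tested, so an SE is not the spread of that gene alone.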

Additional observations from a re-analysis of the deposited data

How the results depend on the processing

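Over 12 libraries Dbp passed the threshold in 15 of 15 alternatives, with log2 fold changes of 1.56 to 2.07, and over animals in 6 of 12 (1.55 to 2.04). The number of members called over libraries (1) was 2 with library size only, with a mean of at least 50 counts, with no segment term and in the replicate block with segment (Dbp and Nr1d2 each time), 3 with DESeq2 (Dbp, Cry1 and Nr1d2) and 4 without the 3 libraries at the end of the first component, an alternative chosen after seeing the data; leaving out an animal gave 1 to 4, with 2 without GFPiSMC animal 2 and 4 without Tgfbr1/2iSMCKO animal 3. Genes called over libraries numbered 1204 of 22320 with library size only, 1157 of 12698 with the mean of at least 50 counts and 1087 of 22320 with no segment term. They numbered 994 of 22320 in the replicate block, 2034 of 22320 with DESeq2 and 905 of 22937 without the 3 libraries. Without GFPiSMC animal 2 they were 680 of 23478, and without Tgfbr1/2iSMCKO animal 3 they were 993 of 23532. Over animals, leaving out an animal gave 0 to 2 members, with 2 without Tgfbr1/2iSMCKO animal 3 (664 of 25739 genes). In the ascending segment the number of members called rose from 0 to 1 (Dbp) with DESeq2, without those 3 libraries and without Tgfbr1/2iSMCKO animal 3 (range 0 to 1). Genes called there were 909 of 22320, 226 of 22937 and 240 of 23532 in that order. In the descending segment the number of members fell from 1 to 0 with the segment fitted alone, with or without the replicate block. It also fell to 0 without any of 5 animals (range 0 to 1). The cause was not tested.

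Replicate numbers shared between genotypes name different animals, whose deviations correlated at -0.53 to 0.21. Whether animals of the same number were handled together is not given in the sources used here. These correlations cannot decide it, and it was not tested. With the replicate block the call over animals was Nr1d2 and no longer Dbp, and genes called numbered 99 over animals (451 without the block), 104 in the ascending (315) and 14 in the descending segment (385).

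Genes called with DESeq2 numbered 2034 (1123 in edgeR) over libraries, 1174 (451) over animals, 909 (315) in the ascending and 907 (385) in the descending segment, 480 (151) between segments and 43 (0) for the interaction. With no filter beyond 1 count they were 265 between segments and 38 for the interaction. The descending segment gave 150 when fitted alone and 195 without the 3 libraries. Leaving out an animal gave 622 to 1066 over libraries, 127 to 664 over animals, 128 to 240 in the ascending and 136 to 330 in the descending segment, 64 to 125 between segments and 0 to 1 for the interaction.

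Directions turned only in members that were not called in either genotype fit. Over libraries Per1 became 0.042 in limma-voom, and leaving out an animal gave it -0.61 to 0.28 (0.28 without GFPiSMC animal 3). Tef became 0.012 with library size only and 0.29 without the 3 libraries, and ran from -0.48 to 0.22 (0.22 without Tgfbr1/2iSMCKO animal 3). Cry2 ran from -0.52 to 0.073, with 0.073 and 0.025 without animal 2 of GFPiSMC or Tgfbr1/2iSMCKO. Over animals Per1 became 0.00015 with the replicate block and ran from -0.60 to 0.28, Tef became 0.059 with library size only and ran from -0.43 to 0.23, Cry2 ran from -0.58 to 0.084 and Per3 from -0.0075 to 0.80, where it was -0.0075 without Tgfbr1/2iSMCKO animal 2.

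With 3 animals per genotype, hours not given in the sources used here and low counts for Per1 and Ciart, a shift in daily phase and a level change cannot be told apart.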
